A study of Mus musculus with 3 samples.

Results

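Ad4BP/SF-1, the product of Nr5a1, is the nuclear receptor that drives the genes of steroid hormone production in testicular Leydig cells. It binds DNA as a monomer at sequences around CAAGGTC, and in these cells luteinizing hormone acts through cAMP, which stimulates the transcription of steroidogenic genes. The regions described here are the weaker peaks of Ad4BP/SF-1 chromatin immunoprecipitation that were present both without and with cAMP. They were chosen by the deposited scores: a vehicle peak that overlapped a cAMP peak by at least 1 bp was taken as weaker when the score was below 100 in the vehicle peak, in the cAMP peak with the largest overlap, or in both. Of the 2167 vehicle peaks on chromosomes 1 to 19 and X with a cAMP partner, 1580 were weaker (72.9%, 95% exact interval 71.0 to 74.8%). They made up 27.6% of the 5721 vehicle peaks, and their 1577 distinct partners made up 39.2% of the 4024 cAMP peaks on these chromosomes.

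The Leydig cells were prepared by density gradient from the pooled testes of ICR male mice 9 weeks of age and kept in serum-supplemented DMEM with antibiotics on dishes coated with collagen type I. One culture received vehicle and the other cAMP, neither carried a transgene or mutation by the labels, and each gave 1 library, so no value below has a replicate. By the study's methods, a rinse some hours after plating removed germ cells and others that had not settled on the dish. A gradient preparation can hold other attached cells of the testis, and peak lists hold no transcript levels against which the cell type could be checked. The study asked which genes Ad4BP/SF-1 occupies in Leydig cells, those of cholesterol synthesis among them, and comparing both lists shows where occupancy was called in either state. The score is the authors' MACS value, −10 times the log10 of the p-value of the peak, which grows with enrichment and with the depth of the library. Read numbers were not used here and the depth is unknown, so scores were compared between conditions by rank within each list.

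The sequence shared by these regions is the Ad4BP/SF-1 consensus, taken here as TCAAGGTC, TCAAGGCC, CCAAGGTC or CCAAGGCC on either strand. Copies at peaks that the account below returns to are shown 5′ to 3′ on the strand that carries the copy, with 15 bases on each side and the consensus in capitals (mm10). They come from the gene of Ad4BP/SF-1 itself (chr2:38718856-38718893, plus strand), a testosterone-forming enzyme gene (chr13:64064391-64064428, minus) and a corepressor gene (chr11:62449006-62449043, plus), followed by the peaks with the largest rank gain (chr7:30968854-30968891, plus), the largest rank loss (chr8:11321737-11321774, minus) and the highest vehicle score among the 10 largest losses (chr9:65155227-65155264, minus).
Nr5a1: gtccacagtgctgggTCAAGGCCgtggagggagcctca
Hsd17b3: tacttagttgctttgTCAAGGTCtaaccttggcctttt
Ncor1: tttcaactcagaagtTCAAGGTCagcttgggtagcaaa
Lsr: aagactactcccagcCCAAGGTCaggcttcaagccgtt
Col4a1: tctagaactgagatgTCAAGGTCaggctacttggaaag
Igdcc3: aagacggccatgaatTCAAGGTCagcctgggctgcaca

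The consensus was present in most of the weaker shared peaks. Over the whole width of the vehicle peak, 1384 of 1580 (87.6%) held at least 1 copy, against 12.7% of 3132 regions of the same widths placed 10 kb to either side where no peak lay. In the central 300 bp the share was 84.9%, against 6.77% of those regions and 5.73% of 32851 RefSeq promoters of 300 bp. In whole peaks the nearest copy lay a median of 33.5 bp from the centre of the peak and within 50 bp of it in 67.8% of peaks with a copy. In 1371 peaks (86.8% of all 1580) a copy was inside the stretch shared with the cAMP peak. The centres of the vehicle and cAMP peaks themselves were a median of 46 bp apart, and 2.0% of the pairs were over 200 bp apart.

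**Figure D1:**
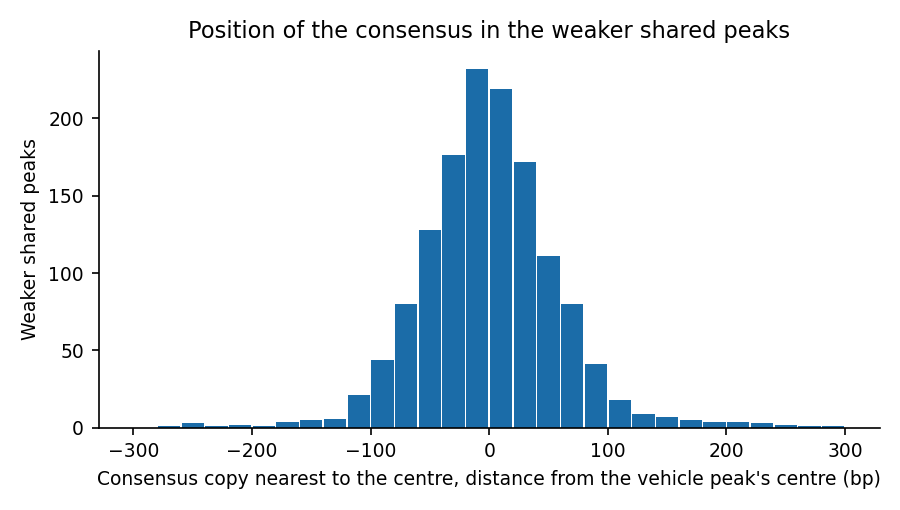
Distance in bp from the centre of each weaker shared vehicle peak (x axis) to the start-to-end midpoint of its nearest consensus copy, with the number of peaks per bin (y axis; copies over 300 bp from the centre, such as that at Nr5a1, are outside the plot). The counts are highest beside the centre, and 92.7% of the copies lie within 100 bp of it.

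Of the 1808 copies in these peaks, 44.2% read TCAAGGTC, 26.9% TCAAGGCC, 16.6% CCAAGGTC and 12.3% CCAAGGCC. In the copy nearest to each centre the base after the consensus was A in 87.1%, the base before it was T in 53.4% and the base before that was G in 61.9%. Of the copies printed above, those at Ncor1, Lsr, Col4a1 and Igdcc3 have this A. Repeat sequence, marked in the reference by lower case, held 39.2% of the copies (37.0 to 41.5%), against 32.3% (27.9 to 36.9%) of the 431 copies found in the flanking regions. The share was 39.7% in the stronger, 42.7% in the cAMP-only and 34.8% in the vehicle-only peaks, and these differences were not tested.

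Of the peaks with a copy, 353 held more than 1, namely 292 with 2, 53 with 3 and 8 with more than 3. Neighbouring copies were a median of 79 bp apart over 424 pairs, and 64.2% of the pairs had both copies on the same strand. The most frequent start-to-start distance was 6 bp, in 34 pairs, at which the copies overlap by 2 bases. Peaks with 3 or more copies had a median vehicle score of 108.3 and a median cAMP score of 70.2, and peaks without a copy 76.6 and 66.9. The median width of the peaks with 3 or more copies was 624 bp and that of all 1580 was 538.5 bp, so that more sequence was searched in the former.

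The arrangement of such copies is shown for a peak in an intron of Eps8, which encodes an actin-regulating signalling adaptor (chr6:137577776-137577915, plus strand, all 5 copies on the minus strand), and for a peak in an intron of Vmn2r11, a vomeronasal receptor gene (chr5:109055432-109055508, plus strand, 3 copies on the plus and 1 on the minus strand). Capitals mark the consensus as it reads on the plus strand.
Eps8: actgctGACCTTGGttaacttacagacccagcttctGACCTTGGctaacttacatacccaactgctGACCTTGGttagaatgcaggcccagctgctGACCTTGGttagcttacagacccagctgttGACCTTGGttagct
Vmn2r11: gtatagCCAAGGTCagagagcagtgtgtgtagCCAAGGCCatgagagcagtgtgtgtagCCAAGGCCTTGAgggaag
The Eps8 peak scored 81.6 in vehicle and 150 in cAMP, and the Vmn2r11 peak 111 in vehicle and 67.0 in cAMP. A peak in the first intron of Fkbp5, which encodes a steroid receptor cochaperone, also held 5 copies and scored 225 in vehicle and 60.2 in cAMP. A vehicle score of 100 or more, as at Vmn2r11 and Fkbp5, leaves only cAMP scores below 100 under the rule, so these directions are a description.

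Because the widths of MACS peaks grow with their scores, classes of peaks were compared over the central 300 bp. There 84.9% of the weaker shared peaks held the consensus (83.0 to 86.6%), against 89.1% of the 587 shared peaks that scored at least 100 in both lists, called stronger below (difference −4.22 percentage points, adjusted exact p = 0.0318). The share was 72.7% among the 3066 vehicle peaks scoring below 100 that overlapped no cAMP peak, 12.2 points under that of the weaker shared peaks (adjusted exact p = 1.89e-20). With the coordinates of the cAMP peaks it was 85.2% among the partners and 60.7% among the 1751 cAMP-only peaks scoring below 100 (adjusted exact p = 1.62e-56). The p-values are from two-sided Fisher's exact tests adjusted by the Benjamini-Hochberg method over 45 such comparisons, 19 of which had an adjusted p under 0.05. They compare regions within this one pair of lists and cover counting error only. The difference from the stronger peaks lost its call when weaker was set at below 150 (−2.90 points, adjusted exact p = 0.547), when both scores had to reach 60 (−3.16 points, adjusted exact p = 0.184) and in the central 200 bp (−4.25 points, adjusted exact p = 0.0628).

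Weaker shared peaks can score 100 or more in 1 list, so the peaks were also compared at like scores. Among vehicle peaks scoring from 50 to 60, 83.2% of the weaker shared peaks and 68.5% of the vehicle-only peaks held the consensus, and from 85 to 100 the shares were 87.2% and 75.3%. The differences over the 4 vehicle score bands ran from 9.47 to 14.7 points, each with an adjusted p under 0.05. In the cAMP list the difference was 31.1 points at scores from 50 to 60 (82.7% and 51.6%), but 3.05 points at 85 to 100 (87.6% and 84.6%, adjusted exact p = 0.481 over the 16 comparisons of both lists in bands). The share of peaks that were shared itself grew with the score, from 17.0% to 45.5% across the vehicle bands and from 28.9% to 66.3% across the cAMP bands. These bands were added after the data were seen.

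More than 1 copy in the central 300 bp was present in 15.8% of weaker shared peaks, fewer than in the stronger peaks (24.4%, adjusted exact p = 3.22e-05) and more than in the vehicle-only peaks (11.9%, adjusted exact p = 0.000824). AP-1, the Fos and Jun dimer that responds to many stimuli, recognises TGACTCA or TGAGTCA. That sequence was in 14.3% of the weaker shared and 14.1% of the stronger peaks (adjusted exact p = 1.0), above the 9.65% of the vehicle-only peaks (adjusted exact p = 1.35e-05), the 5.49% of the flanking regions and the 11% of the cAMP-only peaks (14.2% in the cAMP coordinates of the members, adjusted exact p = 0.0191). At like scores the members had the larger AP-1 share in all 4 vehicle bands (16.5% against 10.6% at 50 to 60 and 14.8% against 10.3% at 85 to 100), but in the cAMP list the shares were 13.4% against 9.77% at 50 to 60, 14% against 12.2% at 70 to 85 and, in the other order, 15.3% against 17.1% at 85 to 100, differences that were not tested. The full cAMP response element TGACGTCA, the site of CREB, was found in 6 of the 1580 (0.38%), in 0.852% of the stronger and in 0.457% of the vehicle-only peaks (adjusted exact p = 0.313 and 0.966), and none of its comparisons had an adjusted p under 0.05. GATA sequences (AGATAAG or TGATAAG, or either with a final C) were in 13.5% of the weaker shared peaks and 10.9% of the stronger peaks (adjusted exact p = 0.219), beside 11.2% of the flanking regions. They were in 14% of the vehicle-only peaks (adjusted exact p = 0.852), and in 13.1% of the cAMP coordinates of the members against 10.5% of the cAMP-only peaks (adjusted exact p = 0.0484). Of the RefSeq promoters, 8.46% held a GATA sequence and 1.79% the full cAMP response element.

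**Figure D2:**
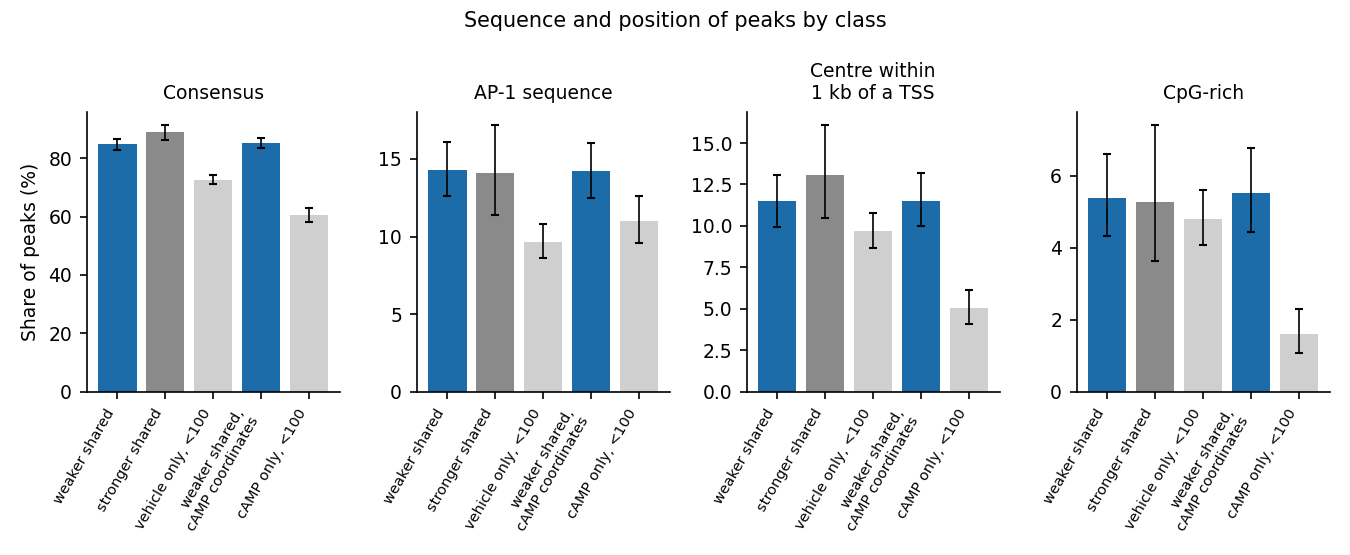
Share of peaks (y axes, percent, each starting at 0) that held the consensus or the AP-1 sequence in the central 300 bp, had their centre within 1 kb of a transcription start site (TSS), or were CpG-rich, for the weaker shared peaks in vehicle and in cAMP coordinates (blue) and the other classes (grey), with 95% exact intervals. The consensus share of the weaker shared peaks (84.9%) is nearer to that of the stronger peaks (89.1%) than to those of the peaks of 1 list (72.7% and 60.7%).

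Most of the weaker shared peaks lay away from promoters. The centre was in an intron in 818 (51.8%), between genes in 526 (33.3%), within 1 kb of the TSS of a protein-coding transcript in 181 (11.5%), in a coding exon in 20 and in another exon in 35. The median distance to the nearest coding TSS was 13122 bp, and 143 peaks were over 100 kb from one. The 1580 peaks had 1393 distinct nearest genes, and 13 of them were on the X chromosome. The promoter share was 13.1% in the stronger peaks (adjusted exact p = 0.476) and 9.72% in the vehicle-only peaks (adjusted exact p = 0.137). It was 5.03% in the cAMP-only peaks, below the 11.5% of the partners of the weaker shared peaks (adjusted exact p = 5.25e-11), and this difference was in the same direction in each of the 4 cAMP score bands, with an adjusted p over 0.05 at 70 to 85 alone (4.69 points, adjusted exact p = 0.107). CpG-rich centres, with at least 50% G and C and an observed-to-expected CpG ratio of at least 0.6, made up 5.52% of the partners and 1.6% of the cAMP-only peaks (adjusted exact p = 3.31e-09). Another shared peak within 10 kb was found for 10.4% of the weaker shared peaks, for 11.6% of the stronger and for 6.95% of the vehicle-only peaks. The overlap of the lists that chose the members also defines this feature, and neighbouring members count for each other. These shares are therefore a description, although they were among the 45 comparisons.

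The scores that defined the class are given as a description. Of the 1580 peaks, 900 (57.0%) scored below 100 in both lists, 446 (28.2%) below 100 in the cAMP list alone and 234 (14.8%) below 100 in the vehicle list alone. The vehicle scores ran from 50.1 to 402 with a median of 80.9, and the cAMP scores from 50.01 to 288 with a median of 71.0. In those below 100 in the cAMP list alone, the medians were 137 in vehicle and 70.03 in cAMP, and in those below 100 in the vehicle list alone 77.1 and 123. Across the 1580 regions the Spearman correlation of both scores was 0.0083, where the rule leaves out every pair that is high in both lists, and across all 2167 shared peaks it was 0.443. At the threshold, the members with the highest lower score were next to Snrpd1 (99.73), Rpl21 (99.59), Otog (99.43), Bard1 (99.43) and Sertad3 (99.38), and the first peaks outside were next to Efhd1 (100.08), Stat5b (100.12), Rbfox2 (100.20), Tmem178 (100.24) and Col28a1 (100.31).

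**Figure D3:**
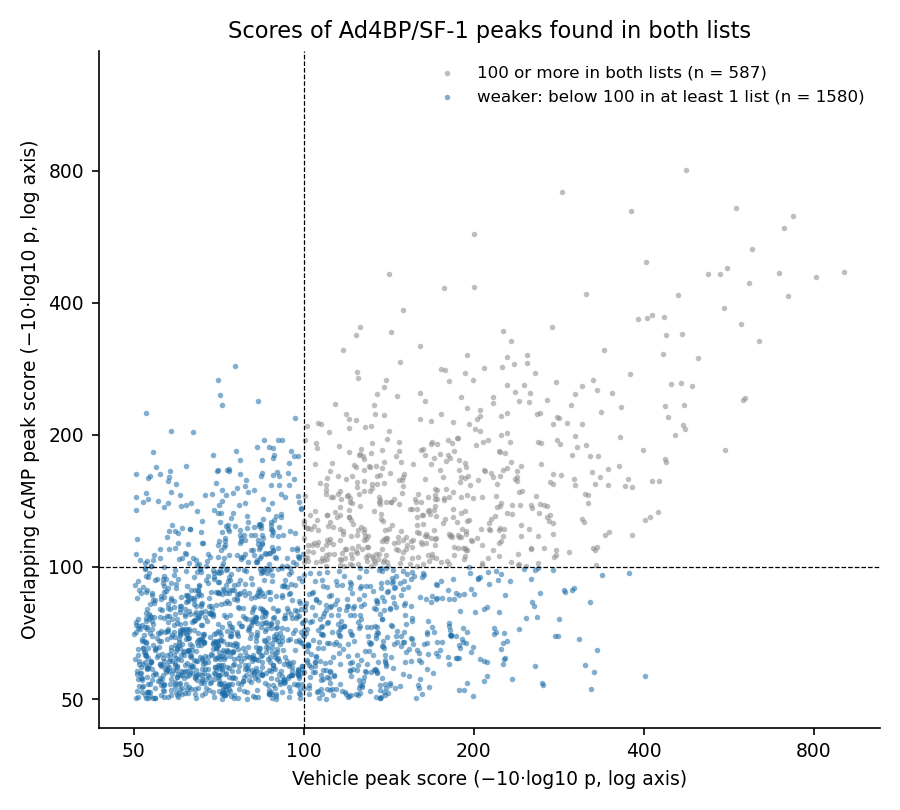
Score of each vehicle peak (x axis) against that of its cAMP partner (y axis), both as −10·log10 p on log axes, for the 1580 weaker (blue) and 587 stronger shared peaks (grey), with dashed lines at a score of 100. The weaker peaks fill the L-shaped area in which at least 1 score is below 100.

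Because the depth of the libraries is unknown, the rank of a peak was taken as the percentage of its own list that scored lower, and the shift as the cAMP rank minus the vehicle rank. The median shift of the weaker shared peaks was −5.47 percentage points, with quartiles of −28.4 and 22.5 points, and 707 (44.7%) ranked higher in the cAMP list. At least 25 points higher in the cAMP list ranked 346 peaks and at least 25 points lower ranked 436. The same numbers hold for all 2167 shared peaks (16.0% and 20.1% of them), since a peak that scores at least 100 in both lists is in the upper part of each, so nothing about the weaker peaks follows from these counts. Ranks counted among the shared peaks alone gave 396 and 415.

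**Figure D4:**
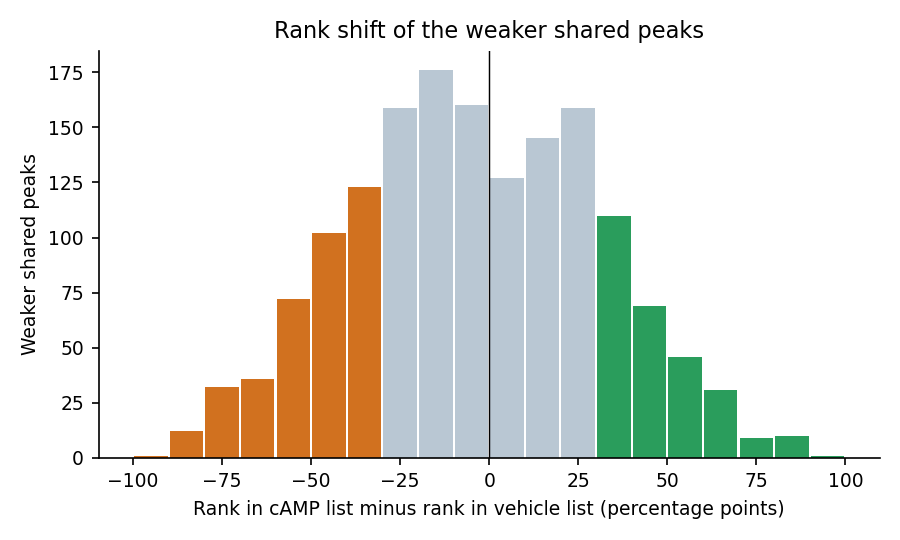
Number of weaker shared peaks (y axis) by rank shift from the vehicle to the cAMP list in percentage points (x axis, bins of 10 points, coloured in the bins beyond 30 points). The shifts run from −90.6 to 92.1 points around a median of −5.47.

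The largest gains and losses were at genes of varied function. The peak with the largest gain was in the second intron of Lsr, which encodes a lipoprotein receptor of the liver and of cell junctions, and scored 50.5 in vehicle and 163 in cAMP, a shift of 92.1 points. Next came peaks nearest to Tomm20 (50.5 and 145), a part of the protein import machinery of mitochondria, and Ing2 (52.6 and 224), a chromatin reader, which were 93.5 and 63.9 kb from those genes' start sites. The other large gains were at Tmem164, Sema4f, Cavin3, Smurf1, Lemd3, Pla2g4a and Zfp148, with vehicle scores of 50.6 to 54.2 and cAMP scores of 116 to 182. Of these, Pla2g4a encodes the phospholipase that releases arachidonic acid and Smurf1 a ubiquitin ligase of BMP signalling. A gain of this size is possible only from a low vehicle rank, and 8 of the 10 peaks held a consensus copy.

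The largest loss was at a peak 8.96 kb upstream of Col4a1 and inside its divergent neighbour Col4a2, which encode the main collagen chains of basement membranes. It scored 200 in vehicle and 50.8 in cAMP, a shift of −90.6 points. Mcrip2 (158 and 50.3) and Igdcc3 (323 and 52.6, intron 2) followed, and others were in or nearest to Clasp2, Zfp444, Pcbp3, Myc, Barx2 and Slc24a4, with vehicle scores of 136 to 192 and cAMP scores of 50.3 to 52.4. The peak assigned to Myc, a growth regulator, was 306 kb from its start site, so the assignment is by distance alone. Losses of this size are likewise possible only down to a low cAMP rank.

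Peaks with a gain of at least 25 points had their centre within 1 kb of a TSS in 7.23% (4.73 to 10.5%), and peaks with a loss of at least 25 points in 12.8% (9.85 to 16.4%). Of the consensus copies in the gaining peaks, 46.9% were in repeat sequence (41.8 to 52.1%), and of those in the losing peaks 32.4% (28.4 to 36.6%). The consensus itself was in the central 300 bp of 87.3% of the gaining and 83.0% of the losing peaks, with intervals that overlap (83.3 to 90.6% and 79.2 to 86.4%). No test was made of these shares, because the shift was computed from the scores that chose the peaks.

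The weaker shared peaks were next related to 16 gene lists by a window of the gene and 10 kb on either side. Of 21755 protein-coding genes, 1483 (6.82%) had such a peak, and 586 (2.69%) had a stronger shared peak. Of the 291 genes on the lists, 42 had at least 1 weaker shared peak, and 36 of these had no stronger one. Of all 1483 coding genes with a weaker shared peak, 110 also had a stronger one, so most had none. The 54 peaks concerned included 48 with a consensus copy, 17 with a loss of at least 25 points and 9 with a gain of that size. Among all 1580 members, 87.6% held a copy, 436 had such a loss and 346 such a gain, and the list peaks were not tested against these values. Genes with a weaker shared peak were long, with a median of 38.9 kb against 17.4 kb for all coding genes, and the part of gene length in the counts was not tested.

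**Figure D5:**
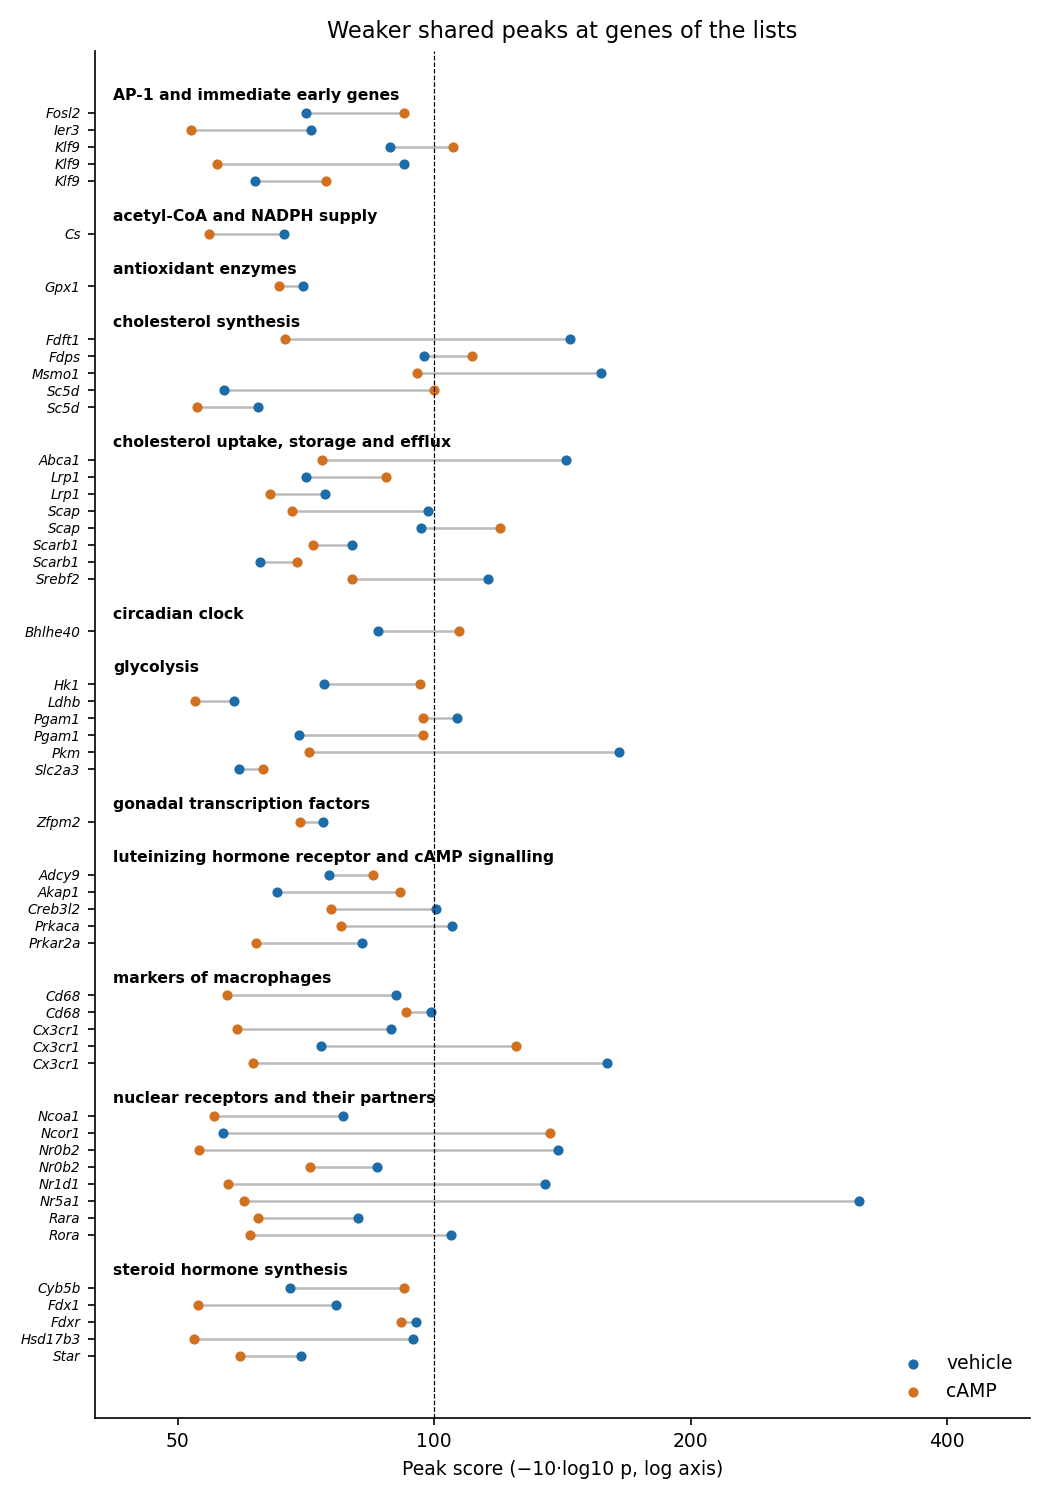
Score in vehicle (blue) and in cAMP (orange) of the weaker shared peaks reported in or within 10 kb of genes on the lists (x axis, −10·log10 p, log axis; dashed line at 100), grouped by list. The widest gap is at Nr5a1, with 315 in vehicle and 59.8 in cAMP, and all 5 steroid synthesis peaks have both scores below 100.

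Of the 17 genes of steroid hormone synthesis, 5 had a weaker shared peak. The Star peak, at the gene of the protein that carries cholesterol into mitochondria, was centred 32 bp upstream of a TSS (chr8:25808183-25808702) and scored 69.7 in vehicle and 59.2 in cAMP. Its consensus copy reads TCAAGGTC on the minus strand. Both genes of the mitochondrial electron chain that supplies the side-chain cleavage enzyme were among the 5, with Fdx1, ferredoxin, at 76.7 in vehicle and 52.8 in cAMP over its first exon, and Fdxr, its reductase, at 95.1 and 91.4 in intron 2. The peak over exon 7 of Hsd17b3, which makes testosterone from androstenedione, scored 94.4 in vehicle and 52.2 in cAMP, a shift of −60.1 points. Cyb5b, an outer mitochondrial membrane cytochrome, was the only one of them to rank higher in the cAMP list by over 25 points, at 67.6 and 92.2. None of the 5 genes had a stronger shared peak, and 3 other genes of this list had one.

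Of the 20 genes of cholesterol synthesis, 5 had a weaker shared peak, and 1 had a stronger one. Sc5d, a sterol desaturase gene, had a peak 6.19 kb upstream at 56.7 and 100.01 without a consensus copy and another 9.84 kb upstream at 62.1 and 52.7 with 2 copies. The Fdft1 peak in intron 3, in the gene of squalene synthase, scored 145 in vehicle and 66.8 in cAMP. Fdps, farnesyl diphosphate synthase, had a peak 6.34 kb upstream at 97.3 and 111, and Msmo1, a sterol methyl oxidase, had a peak centred 229 bp beyond its end at 157 and 95.5. These peaks therefore included both gains and losses of rank.

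Genes for the uptake, storage and efflux of cholesterol included 5 of 27 with such a peak. Scarb1, the receptor for high-density lipoprotein, had 2 intronic peaks, at 80.1 and 72.1 in intron 9 and at 62.4 and 68.9 in intron 1. Lrp1, an endocytic receptor, also had 2, and the peak centred 277 bp upstream of Abca1, the cholesterol exporter, scored 143 in vehicle and 73.9 in cAMP without a consensus copy. Srebf2, the gene of the sterol-responsive factor SREBP-2, had a peak 8.49 kb upstream, within Ccdc134, at 116 and 80.1, and Scap, which escorts SREBP-2, had peaks in introns 1 and 8 at 98.2 and 68.1 and at 96.6 and 119. In glycolysis 5 of 20 genes had a weaker shared peak. The Pkm peak in intron 1, at pyruvate kinase, scored 165 in vehicle and 71.3 in cAMP, and the peak of hexokinase gene Hk1 scored 74.3 and 96.2. The 2 vehicle peaks of Pgam1, phosphoglycerate mutase, at 106 and 69.3, shared a single cAMP peak at 96.9, as did the members of 2 other pairs in the whole set.

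The list of nuclear receptors and their partners was the longest and had the most genes with a weaker shared peak, 8 of 29. By share this was 27.6% (12.7 to 47.2%), below the 29.4% of the steroid hormone synthesis list (10.3 to 56.0%). The share among all coding genes was 6.82%, and differences between these shares were not tested. The Nr5a1 peak was 1408 bp wide (chr2:38718505-38719912), was centred 4.67 kb upstream of the gene, and scored 315 in vehicle, above 98.5% of that list. Its cAMP partner (chr2:38718749-38719083) scored 59.8, above 34.9% of the cAMP list, and lay over the end of the vehicle peak that holds the single consensus copy. Nr0b2, the gene of the corepressing receptor SHP, had a peak centred 219 bp upstream that reached into the gene, at 140 in vehicle and 53.0 in cAMP. The 2 consensus copies of this peak lay outside the cAMP peak. Another Nr0b2 peak, 6865 bp beyond the end of the gene, scored 85.6 and 71.5. Ncor1, a corepressor gene, had a peak in intron 1 that went the other way, at 56.5 and 137, a shift of 69.5 points. Nr1d1 (135 and 57.2), the clock receptor REV-ERBα, Rora (105 and 60.9), Ncoa1 (78.1 and 55.1) and Rara (81.4 and 62.0) each had 1 peak, all of lower rank in the cAMP list.

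In the list of the luteinizing hormone receptor and cAMP signalling, 5 of 28 genes had a weaker shared peak. Prkaca, the catalytic subunit of protein kinase A, had a peak 1.59 kb upstream at 105 in vehicle and 77.8 in cAMP. Prkar2a, a regulatory subunit, had one 3064 bp beyond its end at 82.4 and 61.7, Akap1, an anchor of the kinase at mitochondria, one in intron 2 at 65.4 and 91.1, and Adcy9, an adenylyl cyclase, one at 75.3 and 84.7. Creb3l2, a membrane-bound relative of CREB, had a peak at 100.4 and 75.7. Among immediate early genes (3 of 15), Klf9 had 3 peaks, at 88.8 and 105, 92.3 and 55.5, and 61.5 and 74.7, and Fosl2, a Fos family gene, had 1 at 70.8 and 92.2. Ier3, an early response gene of cell survival, had a peak 7632 bp upstream at 71.7 and 51.8, a shift of −40.9 points. The 3 peaks of Klf9 differed in the direction of their shift.

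The other lists had few or none: Cs alone of 20 genes for acetyl-CoA and NADPH supply, Zfpm2 of 20 gonadal transcription factors, Bhlhe40 of 14 clock genes, Gpx1 of 22 antioxidant enzymes and none of 20 genes of Leydig hormones and growth factors. These shares ran from 0 to 7.14%, beside 6.82% of all coding genes, so nothing about these lists follows from them. Of the 20 genes of Leydig hormones and growth factors, 2 had a stronger shared peak. Of the markers of other testicular cells, 0 of 10 Sertoli cell, 0 of 10 germ cell and 0 of 10 myoid and endothelial genes had a weaker shared peak. The exact interval of each of these shares is 0 to 30.8%. Of 10 macrophage genes, 2 had such a peak. Those 2 rest on neighbouring genes: the peaks by Cd68 lay in Mpdu1 and Eif4a1, and the 3 assigned to Cx3cr1 were 47.6 to 116 kb from its start site, in a part of the annotated gene that overlaps Ttc21a and Xirp1. With the extent of the principal transcript in place of the whole annotated gene, Cx3cr1, Rora and Slc2a3 left the count, which became 39.

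Of all coding genes, 26 had 3 or more weaker shared peaks and 110 had both a weaker and a stronger one. Gm20388 had 14, but its gene model is 4435 kb long and spans many other genes. Col4a2 had 5 over 136 kb, among them the peak with the largest loss, and the other 4 scored 122 and 87.4, 155 and 97.3, 62.2 and 70.3, and 86.7 and 73.8. Msi2, an RNA-binding protein gene, had 4, at 59.2 and 54.1, 92.5 and 144, 150.1 and 88.9, and 69.5 and 135. Rbm47, another RNA-binding protein gene, had 4, of which 3 were at 109 to 141 in vehicle and 79.8 to 89.5 in cAMP and the other at 62.3 and 64.5. Fgfr2 had 4 over an annotated length of 2961 kb, all outside its principal transcript, among them peaks that also lay in Tacc2, Btbd16 and Ctbp2. Actn4, Arhgap23, Auts2, Bri3 and Crispld2 had 3 each, those of Bri3 including peaks that also lay in Baiap2l1. All 3 Crispld2 peaks had ranks in both lists that were within 10 points of each other, whereas Auts2 held a gain of 39.8 and a loss of 41.8 points.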

How the data were processed

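Peaks of Ad4BP/SF-1 were measured by chromatin immunoprecipitation and sequencing in 1 vehicle and 1 cAMP culture of Leydig cells. Of 3 samples, 2 had peak lists, and the input DNA was not analysed here. The authors mapped reads to mm10 with Bowtie, given as version 0.12.8 in the submitters' processing notes, kept uniquely mapped reads and called peaks with MACS. Unique mapping can lose peaks in repeats. Whether the input served as control is not given in the sources used here. The deposited score (−10 times the log10 of the p-value) was used as given, and the coordinates were the other deposited values used. The lowest scores were 50.0 in each list, above the lowest score that the p-value threshold in the study's methods would admit, and how this floor arose is not given in the sources used here. A peak missing from a list may have passed the stated threshold. The peak outside chromosomes 1 to 19 and X (1, in cAMP) was left out.

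Overlaps, ranks and sequence searches were computed in Python 3.11.15 (numpy 2.4.6, pandas 2.3.3) and checked with bedtools 2.31.1 (2167 shared peaks). Genes were those of GENCODE M21, sequences came from the RefSeq copy of GRCm38 (mm10), and promoters from RefSeq. Flanking regions that met a peak or an unknown base were left out. Fisher's exact tests and exact (Clopper-Pearson) intervals were from scipy 1.17.1 and cover counting error only. The functions were tested on simulated data with known answers. Plots were drawn with matplotlib 3.10.9. With 1 library per condition no test compares the conditions. The members, lists, sequences and tests were chosen with earlier results of these data known. Genes named are the nearest coding genes of the 10 largest rank gains and losses, list genes with a weaker shared peak, genes with 3 or more (at most 10), the 10 peaks with most copies (those shown were chosen after their values were seen), and the 5 peaks on either side of the threshold. Alternatives changed the score threshold, the overlap, the window and consensus, the TSS distance, the ranking and the gene window. Some of the peaks and genes that these rules select are not reported here.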

Additional observations from a re-analysis of the deposited data

How the results depend on the processing

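No paired analysis was possible because each condition had 1 library. Of 92 alternative values of the main results, 72 kept their direction and their side of the threshold or stayed within the interval or within 1.5 times the count. The number of weaker shared peaks was 981 with both scores at least 60, since members below that score left. The share with the consensus was 86.9% with the shorter core CAAGGTC or CAAGGCC, 87.6% in whole peaks and 80.8% in the central 200 bp. The difference from the stronger peaks was −4.25 points in the central 200 bp, −2.90 with weaker set at below 150 and −3.16 with scores of at least 60, none with an adjusted p under 0.05, and the cause was not tested. The difference from cAMP-only peaks was 6.93 points at cAMP scores from 70 to 85 (adjusted exact p = 0.0613) and 3.05 at 85 to 100. The share near a TSS was 7.41% within 500 bp, 29.0% within 5 kb and 9.49% by outermost 5′ ends. Its difference from vehicle-only peaks was 3.87 points within 5 kb (adjusted exact p = 0.0149) and 2.19 by outermost ends (adjusted exact p = 0.0275), and reversed to −1.57 at vehicle scores from 50 to 60 and −3.02 at 70 to 85. Its difference from cAMP-only peaks was 4.69 points at cAMP scores from 70 to 85. At 40 points, 166 peaks ranked higher and 255 lower. Within 50 kb, 74 list genes had a weaker shared peak. Of 89 named peaks ranked among shared peaks only, 3 changed the sign of their shift, from −2.66 to 2.08 points at Scarb1 (intron 9), −0.283 to 3.55 at Gpx1 and −1.15 to 3.74 at Pgam1, and none of the 51 with a shift of at least 25 points did. The largest change was 17.0 points. The depth of the libraries is unknown, and a peak missing from 1 list may have fallen just under its floor.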
